A study of Mus musculus with 27 samples.

Results

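Gfap, Vim, Nes, Lcn2, Serpina3n, A2m, Cp, Steap4, Cd44 and S100a6 are genes of reactive gliosis. These 10 genes were chosen by symbol from the 40129 genes of the mouse table, and all 10 were among the 27137 genes that averaged at least 1 normalized read and were tested. Their RNA was measured in whole retinas of wildtype C57BL/6 mice (C57BL/6J in the methods of the study), with 1 library per mouse. Mice of the oxygen-induced retinopathy model (OIR) were kept as pups in raised oxygen, which makes central retinal vessels regress, and were then returned to room air. Control pups (nOIR) stayed in room air throughout. Retinas were taken on postnatal day 14 (p14), the phase of retinal hypoxia, and on day 17 (p17), the phase of retinal neovascularization, from 6 control and 6 OIR mice at p14 and from 6 control and 8 OIR mice at p17. An additional nOIR p14 mouse, S4, was left out, as in the study. A library held the retina of 1 eye or of both eyes. Pups shared litters, which the sample labels do not give per mouse, so the mice of a group need not be independent. Libraries held between 17029536 and 33593428 reads, of which the shallowest was OIR p17 mouse S1.

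Reactive gliosis is the response of retinal Müller glia and astrocytes to injury, hypoxia or inflammation. The cells thicken their intermediate filament skeleton, secrete protease inhibitors and acute phase proteins and lose part of their homeostatic program, while cytokines of the interleukin 6 family that act through STAT3 are well known inducers. Müller glia span the retina and express Vim at rest but little Gfap, whereas astrocytes of the nerve fiber layer express Gfap constitutively. In a whole retina, more cells of a type and more RNA per cell cannot be told apart.

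All 10 genes were higher in OIR mice at both time points. At p14, 10 of 10 had an adjusted p under 0.05 by limma with Benjamini-Hochberg adjustment over all genes tested, compared with 3.18% of all genes in this direction. At p17, 10 of 10 passed the same test, compared with 7.39% of all genes. A differentially expressed gene (DEG) also needed a log2 fold change above 2 or below -2. By this rule 6 of the 10 were upregulated DEG at p14 (0.744% of all genes) and 6 at p17 (1.9% of all genes). Gfap, Serpina3n, A2m, Steap4 and S100a6 were DEG at both, Lcn2 at p14 and Nes at p17. Vim, Cp and Cd44 rose by less than the threshold at both. Over the 10 genes the log2 fold change had a median of 2.64 in the p14 and 2.38 in the p17 comparison, beside medians over all genes of 0.02 and -0.02. The genes were chosen as known genes of the glial response, with earlier results of these mice known, so that the counts describe them and are not independent evidence of its direction.

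In 9 of the 10 genes every OIR p14 mouse lay above every control, as in 1.91% of all genes. Steap4 was the exception. At p17 this held for 8 of the 10 (3.9% of all genes), with Lcn2 and Steap4 as the exceptions. Each gene was also compared by an exact permutation test over mice (two-sided, difference of log2 means), of which 40 were run over 10 genes and 4 comparisons. Without overlap, this exact permutation test gave p = 0.00216 for 6 against 6 mice and p = 6.66e-04 for 8 against 6, the smallest values it allows.

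**Figure D1:**
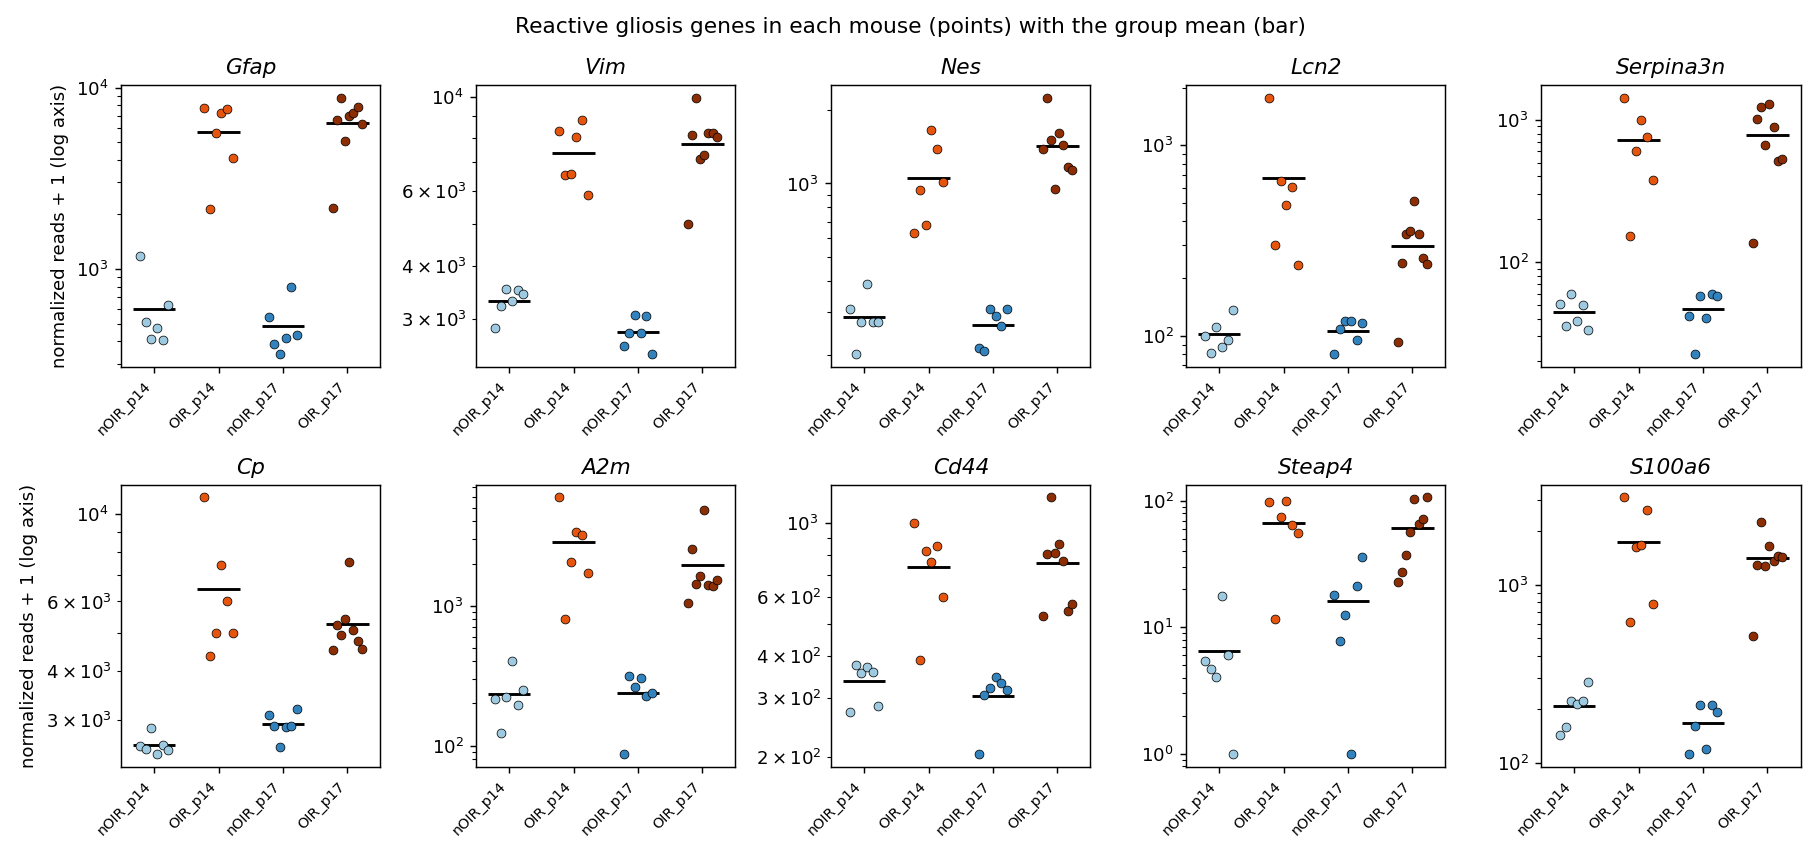
Normalized reads + 1 of the 10 genes (vertical axes, log scale) in each mouse of the 4 groups (horizontal axes), 1 panel per gene, with a point per mouse and a bar at the group mean. OIR mice lie above the controls in all panels, apart from OIR p17 mouse S1 for Lcn2 and the lowest OIR mice for Steap4.

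The region just before the start of transcription was read for the genes found in the RefSeq promoter table (GRCm38.p6), which matched 9 of the 10. The 250 bases upstream of the start were searched on both strands for 3 motifs. These were the STAT site TTCNNNGAA, the AP-1 site TGANTCA and ACGTG, the core of the hypoxia response element. Windows are shown for Gfap and Serpina3n, which rose strongly at both ages, and for Steap4, Cp and Cd44, which are the genes with a match. All are written 5′ to 3′ on the strand of the gene, with the matched motif in capitals. The Gfap window is chr11:102897201-102897450, minus strand, that of Serpina3n chr12:104406458-104406707, plus strand, that of Steap4 chr5:7960222-7960471, plus strand, that of Cp chr3:19956804-19957053, plus strand and that of Cd44 chr2:102901666-102901915, minus strand.
Gfap: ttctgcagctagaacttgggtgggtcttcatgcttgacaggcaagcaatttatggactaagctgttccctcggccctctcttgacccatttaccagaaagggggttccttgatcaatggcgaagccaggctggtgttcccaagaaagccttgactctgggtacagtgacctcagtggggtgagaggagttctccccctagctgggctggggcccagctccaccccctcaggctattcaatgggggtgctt
Serpina3n: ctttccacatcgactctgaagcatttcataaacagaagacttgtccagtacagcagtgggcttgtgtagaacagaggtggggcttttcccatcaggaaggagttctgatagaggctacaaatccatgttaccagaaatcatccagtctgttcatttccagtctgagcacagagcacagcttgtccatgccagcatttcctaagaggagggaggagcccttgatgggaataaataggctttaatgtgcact
Steap4: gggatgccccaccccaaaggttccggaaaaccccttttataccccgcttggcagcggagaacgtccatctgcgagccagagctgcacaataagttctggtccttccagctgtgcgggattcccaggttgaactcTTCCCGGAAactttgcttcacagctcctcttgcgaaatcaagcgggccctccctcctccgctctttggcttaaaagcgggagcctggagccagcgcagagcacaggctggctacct
Cp: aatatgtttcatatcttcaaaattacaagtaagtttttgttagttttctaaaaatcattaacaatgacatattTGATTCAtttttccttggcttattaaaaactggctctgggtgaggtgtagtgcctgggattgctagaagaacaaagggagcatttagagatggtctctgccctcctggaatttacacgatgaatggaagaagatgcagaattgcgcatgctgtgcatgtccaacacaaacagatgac
Cd44: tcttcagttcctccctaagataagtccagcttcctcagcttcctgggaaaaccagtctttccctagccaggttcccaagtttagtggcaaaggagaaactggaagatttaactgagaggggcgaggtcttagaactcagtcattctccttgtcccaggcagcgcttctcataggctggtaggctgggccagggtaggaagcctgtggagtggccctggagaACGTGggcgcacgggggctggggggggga
In the Steap4 window, TTCCCGGAA stood at -116 to -108 from the start, and a STAT site occurred in 7.02% of all 32851 promoter windows of this length. TGATTCA stood at -177 to -171 in the first of 2 Cp windows, and an AP-1 site occurred in 6.75% of all windows. ACGTG was found at -29 to -25 in Cd44 and in 16.6% of all windows. Each motif was thus in 1 of the 9 genes, and the windows of Gfap and Serpina3n held none of these letters. A match describes the sequence and was not tested as a binding site.

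Of the intermediate filaments, Gfap, the filament of astrocytes and of reactive Müller glia, had the largest change. In nOIR p14 mice it ranged from 403 to 1174 normalized reads with a median of 491.5, and in OIR p14 mice from 2132 to 7734 with a median of 6408. At p17, controls had 339 to 799.7 (median 422.4) and OIR mice 2164 to 8794 (median 6808). The lowest OIR mice, S2 at p14 and S1 at p17, still had 1.82 and 2.71 times the reads of the highest control. The log2 fold change was 3.23 at p14 (standard error 0.31, adjusted p = 5.11e-08 by limma) and 3.68 at p17 (standard error 0.29, adjusted p = 1.46e-10 by limma). Among controls, nOIR p14 mouse S1 stood at 1174 and the next at 635.3, so that the SD of this group was 48.9% of its mean.

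Vim, the intermediate filament of resting Müller glia and of other mesenchymal and glial cells, started from a higher level and rose by less. The nOIR p14 mice ranged from 2842 to 3528 normalized reads (median 3358) and the OIR p14 mice from 5873 to 8817 (median 7289.5). At p17, the ranges were 2475 to 3060.3 (median 2773) in controls and 5018 to 9932 (median 8068) in OIR mice. Both pairs of groups were well apart, and Vim varied little within a group, with an SD of 7.75% and 8.39% of the mean in the control groups and 16% and 17.9% in the OIR groups. Its log2 fold change was 1.14 at p14 (standard error 0.12, adjusted p = 1.34e-07 by limma) and 1.46 at p17 (standard error 0.11, adjusted p = 5.56e-11 by limma).

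Nes encodes nestin, a filament of progenitor cells, reactive glia and also of proliferating endothelial cells and pericytes. Its normalized reads were 201.1 to 387.1 (median 272.4) in nOIR p14 mice and 626 to 1656 (median 974.5) in OIR p14 mice. The nOIR p17 mice had 207.4 to 307.3 (median 275.3) and the OIR p17 mice 952.8 to 2233 (median 1406). No OIR mouse fell below 1.62 times the highest control at p14 or 3.10 times at p17. The log2 fold change was 1.81 at p14 (standard error 0.21, adjusted p = 6.24e-07 by limma) and 2.40 at p17 (standard error 0.19, adjusted p = 1.82e-10 by limma). OIR p14 mouse S1, the highest of its group for 7 of the 10 genes, was the lowest for Nes.

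Among the secreted proteins, Serpina3n, a serine protease inhibitor of the acute phase, had the largest log2 fold change of the 10 genes at both ages on the scale of log2 of reads + 1. At p14, Steap4 was above it with a pseudocount of 0.1 (4.29 against 3.75) and without nOIR p14 mouse S5 (3.95 against 3.69). Controls held few reads, with 32.4 to 58.7 (median 43.3) at p14 and 21.5 to 58.4 (median 48.4) at p17. OIR mice ranged from 151.4 to 1431 (median 680.8) at p14 and from 135.3 to 1293 (median 779.2) at p17. The groups did not overlap, but the highest OIR mouse had 9.45 times the reads of the lowest at p14 and 9.56 times at p17. Serpina3n rose by 3.73 on the log2 scale at p14 (standard error 0.45, adjusted p = 1.29e-06 by limma) and by 3.90 at p17 (standard error 0.42, adjusted p = 3.99e-08 by limma). Reads from closely related genes could be shared between them. The 9 other Serpina3 genes in the table summed to 19.3 to 35.7 normalized reads in controls and 36.3 to 104.7 in OIR mice at p14, and to 15.4 to 39.7 and 15.6 to 63.6 at p17, all below the Serpina3n level of the OIR mice.

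A2m, the protease trap alpha-2-macroglobulin, had 121.6 to 402.9 normalized reads in nOIR p14 mice (median 218.7) and 805.2 to 5929 in OIR p14 mice (median 2632). At p17, controls had 86.5 to 312.9 (median 247) and OIR mice 1052 to 4788 (median 1477). Every OIR mouse was above every control, and the spread among OIR mice was wide, with an SD of 62.7% and 61.9% of the mean. The log2 fold change was 3.43 at p14 (standard error 0.38, adjusted p = 4.31e-07 by limma) and 2.99 at p17 (standard error 0.36, adjusted p = 2.74e-07 by limma). Its 4 relatives Pzp, Mug1, Mug-ps1 and A2ml1 together had medians of 238.3 normalized reads in controls and 174.3 in OIR mice at p14, and of 247.3 and 170.4 at p17, so that they did not show the rise of A2m.

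Lcn2, the iron-siderophore carrier lipocalin 2, had an SD of 83.6% of the mean among OIR p14 mice, of which S1 stood far above the other 5. Its normalized reads were 80.5 to 135 in nOIR p14 mice (median 96.6) and 235.6 to 1773 in OIR p14 mice (median 542). In controls at p17 it ranged from 79.3 to 118.1 (median 111.7) and in OIR p17 mice from 91.8 to 507.1 (median 297.7). OIR p17 mouse S1, with 91.8, lay within the controls, whereas the other 7 OIR p17 mice lay above all of them. The log2 fold change was 2.42 at p14 (standard error 0.34, adjusted p = 2.30e-05 by limma) and 1.36 at p17 (standard error 0.32, adjusted p = 0.00352 by limma, exact permutation p = 0.0040). Without OIR p17 mouse S1 it was 1.58 at p17.

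The metal handling genes were Cp and Steap4. Cp encodes ceruloplasmin, a copper-containing ferroxidase that Müller glia and astrocytes use in iron export. It had 2464 to 2865 normalized reads in nOIR p14 mice (median 2557) and 4355 to 11016 in OIR p14 mice (median 5508). At p17, controls ranged from 2560.0 to 3203 (median 2899) and OIR mice from 4525 to 7559 (median 5005). The controls were the tightest groups of all 10 genes, with an SD of 5.48% and 7.53% of the mean, and no OIR mouse reached down to them. Cp rose by 1.24 on the log2 scale at p14 (standard error 0.15, adjusted p = 1.36e-06 by limma) and by 0.83 at p17 (standard error 0.14, adjusted p = 6.31e-05 by limma). Hps3 overlaps Cp on the other strand, and reads of the pair cannot be told apart where counting ignores strand. Hps3 itself had 1514 ± 144 (SD, n = 6) normalized reads in nOIR p14 and 1605 ± 137 (SD, n = 6) in OIR p14 mice. Its log2 fold changes of 0.09 in the p14 comparison and -0.18 in that of p17 did not pass (limma, adjusted p = 0.781 and 0.272).

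Steap4, a metalloreductase of iron and copper that inflammation induces, was the rarest of the 10 genes. In nOIR p14 mice it had 0 to 16.6 normalized reads (median 4.05) and in OIR p14 mice 10.7 to 98.5 (median 68.7). In nOIR p17 mice the range was 0 to 35.1 (median 14.3) and in OIR p17 mice 21.8 to 105.6 (median 60.4). OIR p14 mouse S2 lay below the highest control, while the other 5 lay above, and at p17 6 of 8 OIR mice lay above all controls. On the scale of log2 of reads + 1, the log2 fold change was 3.57 at p14 (standard error 0.69, adjusted p = 0.00104 by limma, exact permutation p = 0.0043) and 2.35 at p17 (standard error 0.64, adjusted p = 0.0118 by limma, exact permutation p = 0.0033). The call at p17 rested on nOIR p17 mouse S4, which had 0 reads, since without it the log2 fold change was 1.67 with an adjusted p of 0.0519 by limma. A pseudocount of 0.1 also ended it (adjusted p = 0.051 by limma), whereas edgeR and DESeq2 on the recovered reads kept it.

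Cd44, a surface receptor for hyaluronan on reactive glia and leukocytes, had 271.7 to 374.9 normalized reads in nOIR p14 mice (median 356.7) and 389.7 to 999.3 in OIR p14 mice (median 793.9). At p17, controls had 203.7 to 345.2 (median 318.7) and OIR mice 525.8 to 1191 (median 786.2). The groups at p14 were only just apart, since OIR p14 mouse S2 had 1.04 times the reads of the highest control. The log2 fold change was 1.09 at p14 (standard error 0.20, adjusted p = 5.09e-04 by limma) and 1.29 at p17 (standard error 0.18, adjusted p = 5.19e-06 by limma). S100a6, a calcium-binding protein of glia and dividing cells, had 143 to 284.7 normalized reads in nOIR p14 mice (median 216.8) and 616.3 to 3078 in OIR p14 mice (median 1649). At p17, it had 111.8 to 211.3 in controls (median 176.1) and 514.9 to 2255 in OIR mice (median 1397). All OIR mice had at least 2.16 times the reads of the highest control of the same age. S100a6 rose by 2.87 on the log2 scale at p14 (standard error 0.32, adjusted p = 4.37e-07 by limma) and by 3.01 at p17 (standard error 0.30, adjusted p = 1.01e-08 by limma).

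To ask whether the response changed between hypoxia and neovascularization, the OIR effect at p17 was compared with that at p14 as a contrast in the same fit. None of the 10 genes passed by limma, edgeR or DESeq2, compared with 1.43% of all genes whose log2 fold change was higher at p17 and 0.147% whose log2 fold change was lower by limma. At an unadjusted p under 0.05 by limma there were 2. The effect on Lcn2 was smaller at p17, by -1.06 (standard error 0.47, 95% interval -2.02 to -0.09, adjusted p = 0.400 by limma), and that on Nes larger, by 0.59 (standard error 0.28, 95% interval 0.01 to 1.17, adjusted p = 0.456 by limma). By edgeR 3 genes (Vim, Lcn2 and Cp) and by DESeq2 3 genes (Lcn2, Cp and Steap4) had an unadjusted p under 0.05, and Nes was not among them by either tool. For Gfap the difference was 0.45 (95% interval -0.43 to 1.32) and for Serpina3n 0.17 (95% interval -1.08 to 1.42). For Steap4 it was -1.22, with an interval from -3.14 to 0.71. These 3 values leaned on single mice. Gfap was at 0.19 without OIR p14 mouse S2 and 0.65 without OIR p17 mouse S1, and the same omissions put Serpina3n at -0.21 and 0.49. Steap4 was at -1.90 without nOIR p17 mouse S4 and -0.77 without nOIR p14 mouse S7. Differences of these sizes are not excluded by tests that did not pass, and for Steap4 a change of up to 3.14 on the log2 scale lies within the interval.

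**Figure D2:**
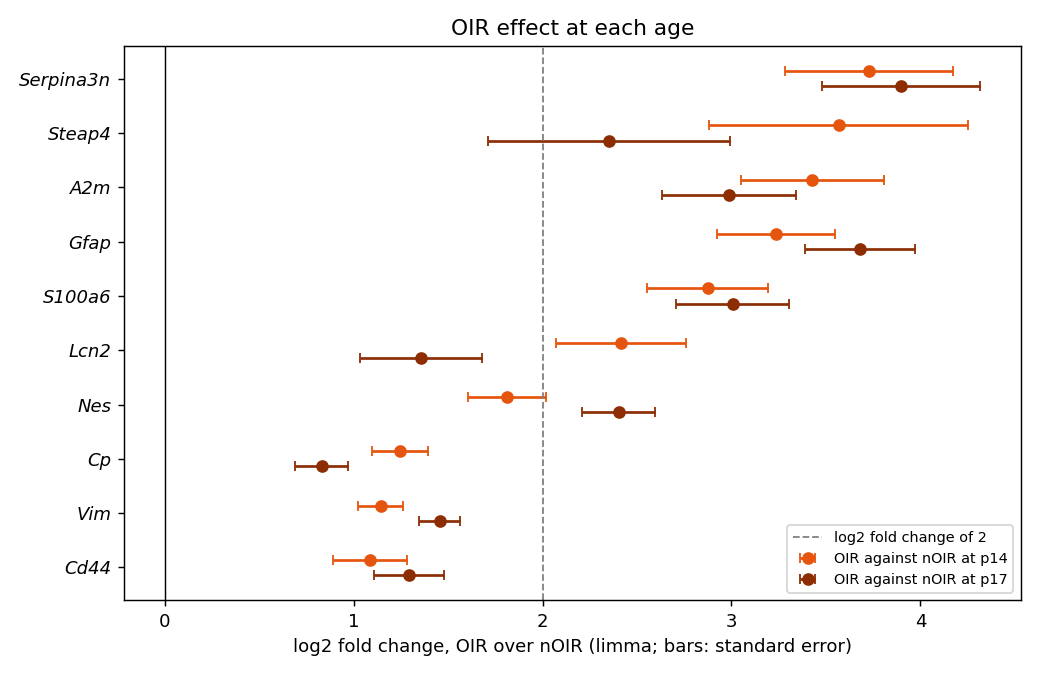
Log2 fold change of OIR against nOIR mice for each of the 10 genes (horizontal axis), at p14 and at p17, with bars for the standard error from limma and a line at the DEG threshold of 2. Gfap, Serpina3n, A2m, Steap4 and S100a6 are above 2 at both ages, and Lcn2 and Nes cross it at p14 and p17 respectively.

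The groups of either kind were also compared across age, with the same mice as above. In controls, 0 of the 10 genes passed between p17 and p14 by limma, edgeR or DESeq2 (0.158% of all genes higher and 0.158% lower by limma), and Vim was the 1 gene with an unadjusted p under 0.05 by limma (log2 difference -0.25), joined by Steap4 in edgeR and DESeq2. The exact permutation test gave Vim p = 0.00866 and Cp p = 0.0173, both unadjusted. For Cp (log2 difference 0.17) 5 of 6 nOIR p17 mice lay above all nOIR p14 mice used. The left-out nOIR p14 mouse S4, with 3144 normalized reads of Cp, was exceeded only by nOIR p17 mouse S6 (3203). In OIR mice, 0 of the 10 passed by limma (4.11% of all genes higher and 1.81% lower at p17), and Nes and Lcn2 had an unadjusted p under 0.05. The log2 level of Nes was 0.49 higher at p17 (standard error 0.19, adjusted p = 0.153 by limma). Lcn2 was lower at p17, by -0.99 (standard error 0.32, adjusted p = 0.0674 by limma, exact permutation p = 0.04995). Without OIR p14 mouse S1 the Lcn2 difference was -0.64. Lcn2 did pass by edgeR, at -1.16 (adjusted p = 0.0213), and by DESeq2, at -1.19 (adjusted p = 0.00408). The OIR mice of both ages overlapped in all 10 genes, as they did in most genes, since each OIR p17 mouse was above each OIR p14 mouse in 1.41% of all genes and below in 0.387%.

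The order of the 10 genes was compared per length, as normalized reads per kilobase of merged exons (GENCODE M21, GRCm38, whereas the authors counted on a later GENCODE release). Vim led in each group, with 696 ± 53.9 (SD, n = 6) per kilobase in nOIR p14 and 1631 ± 292 (SD, n = 8) in OIR p17 mice. In nOIR p14 mice Cp followed at 271 ± 14.8, then S100a6 at 151.2 ± 37.4 and Gfap at 142.4 ± 69.6, the last of which did not differ beyond their SD. Cd44, Nes, Lcn2, A2m and Serpina3n came next between 21.2 and 49.5, each within the SD of its neighbour. In OIR p17 mice Gfap had rank 2, at 1513 ± 479, within the SD of Vim, and S100a6 followed at 1025 ± 351. Cp had rank 4 at 549.5 ± 103, followed by Serpina3n at 379.7 ± 192 and A2m at 280.3 ± 173, which were within each other's SD. Steap4 was last in each group, at 1.74 ± 1.82 per kilobase in nOIR p14 and 19.2 ± 10.2 in OIR p17 mice.

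Some mice stood at the same end of their group for most of the 10 genes. In OIR p14, mouse S1 was the highest of 6 for 7 genes (Gfap, Lcn2, Serpina3n, Cp, A2m, Cd44 and S100a6), and mouse S2 was the lowest for 7 (Gfap, Serpina3n, Cp, A2m, Cd44, Steap4 and S100a6). In OIR p17, mouse S1 was the lowest of 8 for 9 genes, with Nes as the exception, and it was also the shallowest library, at 17029536 reads. Mouse S3 was the highest for Gfap, Vim, Cd44 and S100a6 and mouse S5 for Lcn2, Serpina3n, Cp and A2m. Over the 10 genes, the median deviation from the group mean was 0.82 on the log2 scale for OIR p14 S1, -1.06 for OIR p14 S2 and -0.99 for OIR p17 S1. The part of library depth in the low values of OIR p17 S1 was not tested. Without that mouse, Gfap rose by 3.89 and Serpina3n by 4.22 at p17.

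**Figure D3:**
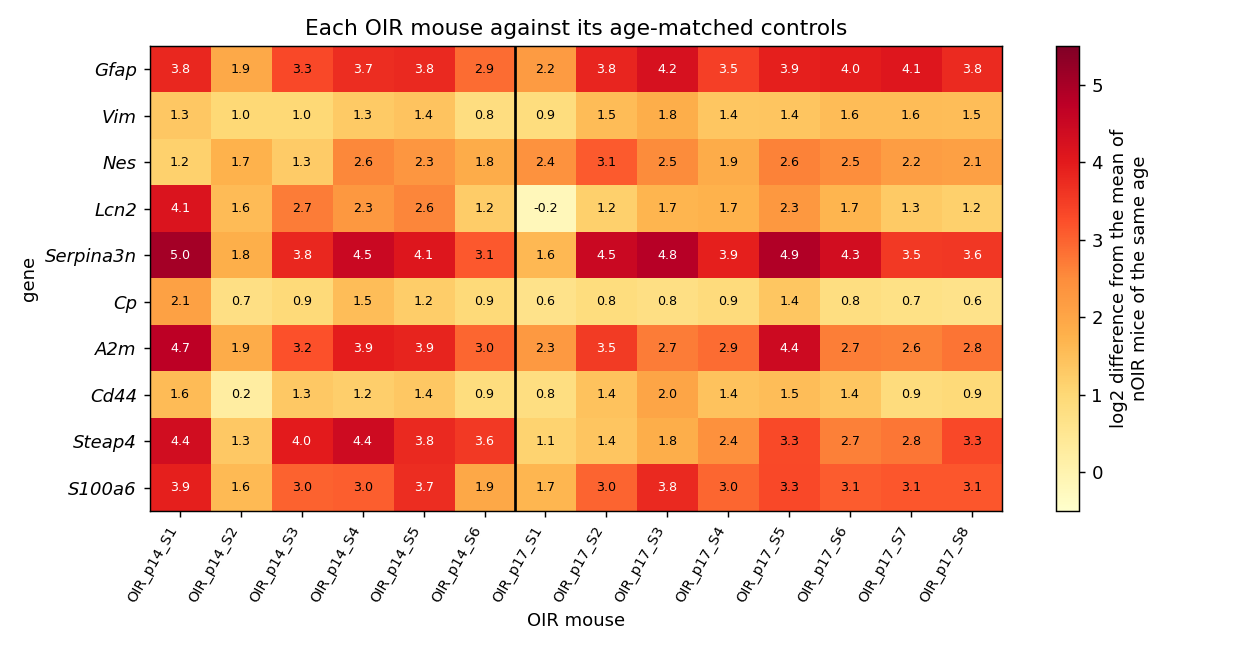
Log2 difference of each of the 14 OIR mice (columns) from the mean of the controls of the same age, for each of the 10 genes (rows), as a color scale. OIR p14 S2 and OIR p17 S1 are paler than their groups in most rows, and Lcn2 in OIR p17 S1 is the one value below 0, at -0.19.

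Genes nearest in pattern were searched among the 19003 genes that averaged 10 or more normalized reads, by the root mean square difference between the 4 group means after centring, so that these are a description over 4 points. Nearest to Gfap were Flnc (0.12 on the log2 scale), Ccl12 (0.15) and H2-Ab1 (0.16). Vim was nearest to Ctsc, Nxph4 and Cldn19, and Nes to Esco2, Atf3 and Pdlim1. For Serpina3n they were H2-T-ps, Ccl12 and Gfap, and for A2m Olig1, S100a6 and H2-Q2, so that 2 of the 10 genes had another of the 10 among their 3 nearest. S100a6 was nearest to Muc2, H2-Q2 and Chaf1b, Cd44 to Prdx4, Slc25a37 and Cldn19, and Cp to Cdt1, Slc22a21 and E230001N04Rik. For Lcn2 they were Gm44751, H2-Q10 and Kcnh3, and for Steap4 Emilin2, Mt2 and Bik. Of the nearest genes, that of Steap4 was the loosest match, at 0.235, and that of Cd44, Prdx4, the closest, at 0.01.

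Other genes of reactive astrocytes were taken from a list of 29 genes that does not hold the 10. By limma, 12 of 29 were higher at p14 (3.18% of all genes) and 18 at p17 (7.39% of all genes). At each age 1 was lower (2.91% of all genes at p14 and 5.12% at p17). These were Fbln5 at p14 (log2 fold change -1.42) and Amigo2 at p17 (-0.30). The list had a median log2 fold change of 0.64 in the p14 and 1.27 in the p17 comparison. Timp1, an inhibitor of matrix metalloproteinases, rose by 5.90 at p14 and by 5.03 at p17. Osmr, the oncostatin M receptor, rose by 2.47 and 2.06, and H2-T23, a class I histocompatibility gene, by 1.46 and 1.44. Emp1, a tetraspan membrane protein, rose by 1.79 and 3.10, and S1pr3, a sphingosine phosphate receptor, by 1.27 at p17, where at p14 its log2 fold change was 0.35 (adjusted p = 0.131 by limma). By the test of the difference, 5 of the 29 had a log2 fold change that was higher at p17 (1.43% of all genes). These were Tm4sf1, Hspb1, Srgn and S1pr3, and Fbln5, which fell at p14 and stood at -0.14 at p17 (adjusted p = 0.769 by limma). Whether the 29 genes and the 10 differed in this was not tested.

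The interleukin 6 family and STAT3 genes were a list of 20. Of these, 5 were higher at p14 (Bcl3, Cebpd, Socs3, Osm and Stat3; 3.18% of all genes) and none was lower. At p17, 7 were higher (7.39% of all genes) and 1 was lower (Cntfr, -0.71; 5.12% of all genes). Stat3, the transcription factor of the pathway, rose by 1.36 at p14 (standard error 0.16, adjusted p = 9.91e-07 by limma) and by 1.52 at p17 (standard error 0.15, adjusted p = 8.22e-09 by limma). Cebpd rose by 3.13 and 3.52 and Bcl3 by 3.77 and 3.46, both of which encode regulators of transcription that inflammation induces. Lif, a ligand of the family, stood at a log2 fold change of 1.02 in the p14 and 1.52 in the p17 comparison and did not pass (limma, adjusted p = 0.552 and 0.176). Osm, another ligand, rose by 2.48 at p14 (adjusted p = 0.0129 by limma) and did not pass at p17 (1.15, adjusted p = 0.240 by limma). It was rare, with 0 normalized reads in every nOIR p14 mouse used and a mean of 7.3 in OIR p14 mice. The median over the list was 0.22 at p14 and 0.41 at p17.

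Müller glia and astrocytes, the glia in which this response is known, were followed by markers that are not part of the 10. Of 14 Müller glia markers, 6 were lower and 1 was higher at p14 (2.91% and 3.18% of all genes), and 7 were lower and 2 higher at p17 (5.12% and 7.39% of all genes). Glul, the glutamine synthetase of Müller glia, fell by 0.98 on the log2 scale at p14 (standard error 0.15, adjusted p = 8.21e-05 by limma) and by 0.47 at p17. Aqp4, the glial water channel, fell by 0.78 and 0.86, and Abca8a, a lipid transporter, by 0.95 and 1.02. Crym, a thyroid hormone binding protein, rose by 1.24 and 1.13. The summed Müller glia markers ranged from 110162 to 143993 normalized reads in controls and 102007 to 113058 in OIR mice at p14, and from 109313 to 132105 and 91589 to 131328 at p17, so that the groups overlapped at both ages.

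Of 8 astrocyte markers, 2 were higher at p14 (3.18% of all genes) and 4 at p17 (7.39% of all genes) and none was lower by limma. Aldh1l1, a folate enzyme of astrocytes, rose by 0.94 and 0.82, and Pdgfra, a growth factor receptor of retinal astrocytes, by 0.70 and 0.82. Gja1, the gap junction protein connexin 43, had a log2 fold change of 0.49 at p14 (adjusted p = 0.449 by limma) and rose by 1.32 at p17. S100b, a calcium-binding glial marker, was at -0.61 and -0.05 (adjusted p = 0.0733 and 0.917 by limma). By DESeq2, 1 astrocyte marker was lower at p14, compared with 963 of all 27137 genes. Summed astrocyte markers ranged from 9645 to 11485 normalized reads in nOIR p14 and from 10785 to 13178 in OIR p14 mice, and from 9607 to 12282 in nOIR p17 and 9652 to 13464 in OIR p17 mice. Slc1a2 made up most of these sums, with means of 8228 in nOIR p14, 8774 in OIR p14, 9081 in nOIR p17 and 8706 in OIR p17 mice. The sums therefore say little of the other astrocyte markers.

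Markers of other cell types that express several of the 10 genes were also followed. Of 10 endothelial markers, 2 were higher and 1 lower at p14 (3.18% and 2.91% of all genes) and 8 were higher at p17 (7.39% of all genes). By the test of the difference, 7 had a log2 fold change that was higher at p17 (1.43% of all genes). Of 8 pericyte and smooth muscle markers, 2 were higher and 3 lower at p14 (3.18% and 2.91% of all genes). All 8 were higher at p17 (7.39% of all genes), and all 8 passed the test of the difference upward (1.43% of all genes). Kcnj8, a channel of pericytes, fell by 1.72 at p14 and rose by 0.99 at p17, and Rgs5 fell by 1.10 and rose by 1.84. Pericyte markers summed to 2281 to 4408 normalized reads in OIR p14 and 10247 to 16051 in OIR p17 mice, and to 3074 to 4310 over the controls of both ages. Vim, Nes, Cd44 and S100a6, which such cells can also express, did not pass the test of OIR p17 against OIR p14 mice. The log2 difference was 0.49 for Nes, which passed without OIR p14 mouse S4 (adjusted p = 0.0409 by limma), and 0.07 for Vim, 0.05 for Cd44 and -0.18 for S100a6. The part of vascular cells in these genes was not tested.

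Microglia and macrophage markers showed 3 of 10 higher at p14 (3.18% of all genes) and 8 at p17 (7.39% of all genes), among them C1qb, a complement component, with log2 fold changes of 1.01 and 2.07. By the test of the difference, 5 had a log2 fold change that was higher at p17 (1.43% of all genes). They summed to 2618 to 3553 normalized reads in controls and 3134 to 4431 in OIR mice at p14, and to 2319 to 2628 and 4183 to 7666 at p17. Neutrophils also store Lcn2. Of 10 neutrophil markers, 8 were matched in the table and 6 of these were abundant enough to be tested. By limma and DESeq2, 0 of the 6 passed at p14, with none at an unadjusted p under 0.05 by either and 1 by edgeR. With 3.18% of all genes higher and 2.91% lower at p14 by limma, 0 of 6 is near the share of all genes. At p17, S100a8 alone passed by limma (log2 fold change 2.03, adjusted p = 0.0138), compared with 7.39% of all genes. By DESeq2 it also passed, as did 2286 of 27137 genes in this direction. None passed by edgeR, where S100a8 had an unadjusted p under 0.05. The neutrophil sum stayed between 10.7 and 104.9 normalized reads in OIR mice, and Mpo was at 0 in the nOIR p14, OIR p14 and nOIR p17 groups. Csf3r made up much of this sum, with means of 19.2 in OIR p14 and 29.4 in OIR p17 mice. The part of neutrophils in the Lcn2 level was not tested.

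Lens and pigment epithelium can adhere to a dissected retina. Of 7 lens markers and of 8 pigment epithelium markers, 0 passed at either age by limma, edgeR or DESeq2. By limma, 3.18% of all genes were higher and 2.91% lower at p14, and 7.39% and 5.12% at p17. Beside these shares, 0 of so few genes says little. At an unadjusted p under 0.05, limma found 0 lens markers and 1 pigment epithelium marker at p14 and 0 of both at p17, while edgeR and DESeq2 found at most 1 per list and age. Summed lens markers varied from 64.8 to 32297 normalized reads over the 26 mice, and the ranges of all 4 groups overlapped. With log2 Cryaa as a covariate, all 10 genes remained higher at both ages. The 10 markers of retinal neurons summed to 771246 to 1580680 normalized reads per mouse. Of these markers, 4 were lower at p14 (Arr3, Gnat1, Calb1 and Snap25), compared with 2.91% of all genes, and 3 at p17 (Calb1, Snap25 and Pde6b), compared with 5.12%.

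**Figure D4:**
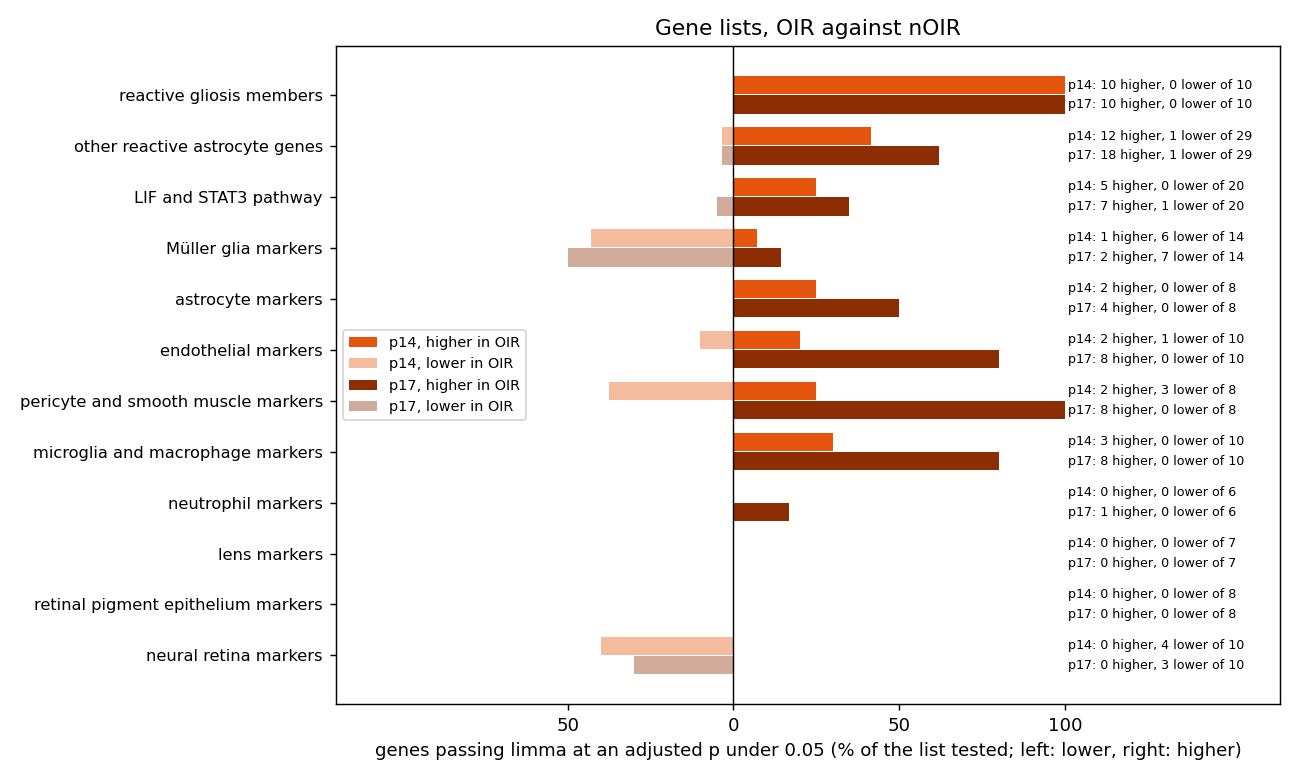
Share of the genes of each list that passed limma at an adjusted p under 0.05 (horizontal axis, percent of the list tested, lower to the left and higher to the right), at p14 and p17. Bars of the 10 genes span the full length to the right at both ages, Müller glia and neural retina markers lie mostly to the left, and vascular and microglia markers reach further to the right at p17 than at p14.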

How the data were processed

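The authors mapped single reads with STAR 2.7.8a, counted them on genes with featureCounts 2.0.1 and divided the counts by DESeq2 size factors. The deposited signal is therefore normalized reads per gene and mouse, from a kit not stated to mark strand. Multiplying it by 1 factor per mouse gave whole reads for 100% of the values (tolerance 0.001 reads). The table also holds the authors' group means, log2 fold changes and adjusted p-values, which were not used. No pair of mice of a group was a copy of the other (lowest chi-square per degree of freedom 9.39).

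The 10 genes and all lists were chosen with earlier results of these data known. A single limma 3.58.1 model (R 4.3.3, eBayes with a trend) took log2(normalized reads + 1) of the 26 mice, with Benjamini-Hochberg adjustment across the 27137 genes. Exact permutation tests used Python 3.11.15 with scipy 1.17.1. Genes named from each other list were drawn from the 3 with the smallest adjusted p at p14 and the 3 at p17, and for each of the 10 genes the 3 nearest in pattern are given. Further genes were named after their values were seen. Alternatives included edgeR 4.0.16 and DESeq2 1.42.0 on the recovered reads, other scalings, filters and 1 covariate, and omission of single mice. The limma script was tested on simulated data of the p14 comparison with 200 changed genes. It recovered 41% of them at a log2 change of 1 and 100% at 3, with 4 and 16 false calls. Changes of 1 were thus often missed. Reads are not independent molecules, since PCR copies were not removed.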

Additional observations from a re-analysis of the deposited data

Results flagged for a closer look

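Within each group, the lowest and highest mouse of each gene were compared with the rest on the log2 scale by the gap to the nearest mouse divided by the whole range. Over 40 gene and group combinations, 9 passed Dixon's 95% limit, where chance flags about 1 in 20. OIR p17 mouse S1 was the low value in 4 of them. Its share of the range was 0.612 for Gfap (2164 normalized reads), 0.554 for Lcn2 (91.8), 0.591 for Serpina3n (135.3) and 0.609 for S100a6 (514.9). OIR p17 mouse S5 was high for Cp (0.65, with 7559 normalized reads), and OIR p14 mouse S2 was low for Steap4 (0.726, with 10.7). Among controls, nOIR p14 mouse S3 was high for Cp (0.643, with 2865), and nOIR p17 mouse S1 was low for A2m (0.744, with 86.5) and for Cd44 (0.765, with 203.7).

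The control that was left out, nOIR p14 mouse S4, had 3144 normalized reads of Cp and 33.7 of Steap4, above the other 6 nOIR p14 mice. It lay below all 6 for Lcn2 (55.5) and S100a6 (128.9) and within their range for the other 6 genes.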

How the results depend on the processing

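Each log2 fold change was computed again under 12 other settings and without each of 26 mice. At p14, all 380 values of the 10 genes stayed above 0 and past the threshold. At p17, 377 of 380 did, and the other 3 were those of Steap4, with a pseudocount of 0.1 (adjusted p = 0.051), without nOIR p17 mouse S4 (0.0519) and at an adjusted p under 0.01 (0.0118). Steap4 rests on few reads, and the cause was not tested. In the difference between the ages, none of the 10 passed in any of 37 settings. The fit on the compared groups only could not be run there. Between OIR p17 and OIR p14 mice, 1 gene, Lcn2, was lower by edgeR and by DESeq2, and leaving out a mouse gave 0 to 1 genes lower and 0 to 1 higher. Lcn2 passed without OIR p14 mouse S2 (adjusted p = 0.0374), without OIR p14 mouse S6 (0.0192) and without OIR p17 mouse S5 (0.0329), and Nes without OIR p14 mouse S4 (0.0409), whereas without OIR p14 mouse S1 the Lcn2 difference shrank from -0.99 to -0.64. Values that never passed changed sign in 6 of 370 settings and genes for the difference between the ages, 15 of 380 for controls and 14 of 380 for OIR mice. Same-numbered mice correlated by -0.192 to 0.253, and 2 of 11 correlated best with their own number, so the numbers do not pair the mice. With a replicate block, 10 genes were higher at p14 and 10 at p17, with 6 DEG at each, and no call changed.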

Other observations

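Vegfa, the hypoxia-induced growth factor, stood at or near the opposite end from most of the 10 genes in 3 OIR mice. It rose by 0.66 on the log2 scale at p14 (standard error 0.13, adjusted p = 0.00168 by limma) and by 1.49 at p17 (standard error 0.13, adjusted p = 4.45e-10 by limma), with a larger effect at p17 (difference 0.83, adjusted p = 0.0116 by limma). OIR p14 mouse S1, the highest for 7 of the 10 genes, had 4151 normalized reads of Vegfa, the lowest of the 6. OIR p14 mouse S2, the lowest for 7 genes, had rank 2 for Vegfa, at 7712. OIR p17 mouse S1, the lowest for 9 of the 10 genes, had rank 2 of 8, at 10461. Nes, in contrast, shared its lowest mouse with Vegfa in both OIR groups, S1 at p14 and S4 at p17. The other OIR mice were mixed. OIR p14 mouse S6 was low for both, with 4612 Vegfa reads and a median log2 deviation of -0.33 over the 10 genes. OIR p14 mouse S3 had the most Vegfa of its group (8754) and 6 of the 10 genes above their group mean. OIR p17 mouse S4, the lowest for Vegfa (6540), was at a median deviation of -0.02. OIR p17 mouse S8, with 11093 Vegfa reads, was at -0.19, the same way as the 3 mice. These ranks were seen in the data and not tested.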
